A study of Mus musculus with 6 samples.

Results

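The genes described here are DNA repair, Fanconi anaemia and checkpoint genes, 44 in all, grouped by the repair pathway in which they act. They were chosen by name, with earlier results of these data known. Of the 44 genes, 40 were measured among the 22180 genes tested in the series. Rad54b and Fanca lie on probe sets that the platform annotation also assigns to a second gene, and these 2 together with Xrcc2 and Rbbp8 were not analysed here. The levels were read in cultured mouse fibroblast-like synoviocytes, cells of connective tissue from the lining of joints, on 6 arrays. The cells came from knee synovium of C57BL6 mice and were used between passages 4 and 8. All cells met an adenovirus for 2 h (multiplicity of infection 800) and stayed in culture for 24 h. The 3 Mock arrays hold cells that received the empty virus, and the 3 Ad-Epas1 arrays hold cells that received a virus carrying Epas1, which encodes the oxygen-regulated transcription factor HIF-2alpha. Which promoter drives Epas1 in the virus was not stated in the labels. Whether the replicates stem from different animals or cultures is not said in the labels, and the p-values refer to the spread among these arrays, which may be technical.

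DNA double-strand breaks are repaired mainly by homologous recombination, which copies the sister chromatid and works in S and G2 phase, or by end joining, which rejoins the ends at any phase. The Fanconi anaemia pathway unhooks crosslinks between the strands and hands the resulting breaks to homologous recombination. The checkpoint kinases Atm and Atr sense breaks and single-stranded DNA, and their effectors Chek2 and Chek1 stall the cell cycle. Many of these genes are transcribed mainly in dividing cells, under transcription factors of the E2F family, and low oxygen is known to lower several of them in other cell types. The comparison asks what happens to their transcripts in synoviocytes that receive Epas1.

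All values are log2 expression levels after the authors' normalization, 1 per probe set and array, and a difference of 1 is a doubling. Epas1 stood at 8.67, 8.71 and 8.51 on Mock replicates 1, 2 and 3 and at 13.14, 13.15 and 13.11 on the Ad-Epas1 replicates, so the labels match the delivered gene. The array medians over the genes tested lay between 7.25 and 7.30. The labels call the cells pure by flow cytometry for CD90 and against CD14. Thy1, which encodes CD90, stood between 11.06 and 11.17 in Mock and between 10.40 and 10.98 in Ad-Epas1, but macrophage transcripts were also present, with Cd14 at 10.42, 9.99 and 10.14 in Mock and at 11.92, 11.40 and 8.62 in Ad-Epas1. The summed linear level of 14 macrophage markers lay between 35370 and 43660 in Mock, at 44590 and 38280 on Ad-Epas1 replicates 1 and 2, and at 2924 on Ad-Epas1 replicate 3, which stands apart in this respect. Of the 14 markers, 1 fell (Mrc1) and 13 did not pass. As a scale for silent genes, 95% of 1394 receptor genes of smell and pheromone sensing averaged below 6.62. Of the defining macrophage markers Cd163 lay under this level, at 6.04 in Mock. The median Mock level of the 14 macrophage markers was 11.15, however, and that of 14 fibroblast-like synoviocyte markers was 11.88. Of all genes tested, 9.75% fell and 6.57% rose by limma at an adjusted p under 0.05. Of 14 fibroblast-like synoviocyte markers 4 fell and 2 rose. The 3 with the smallest p were Pdpn, which rose by 0.73 (adjusted p = 0.0041), Pdgfrb, which fell by 1.20 (adjusted p = 0.0044), and Cdh11. Cdh11 fell by 1.26 (adjusted p = 0.011) and lost the call without Mock replicate 2 or 3. None of 7 endothelial markers and none of 4 lymphocyte markers passed by limma. At an unadjusted p under 0.05, 3 endothelial and 0 lymphocyte markers were higher, where 16.3% of all genes were. Of the cartilage markers 1 of 4 (Col2a1) fell by limma, at an adjusted p of 0.049. It lost that call in 5 of the 6 fits that left out 1 array (adjusted p up to 0.16). Of the adipocyte markers 1 of 4 (Pparg) fell, and the other 3 had higher means in Ad-Epas1 and did not pass.

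Most transcripts of the chosen repair genes were lower in the cells that received Epas1. Of the 40 measured members, 29 fell at an adjusted p under 0.05 (limma, two-sided, Benjamini-Hochberg over all genes). Of all genes tested 9.75% fell, and of 149 other measured repair genes 37 (24.8%). Because the members were chosen with earlier results known, their share does not stand for DNA repair genes at large. No member rose, by limma or by a linear model per gene without shared variance, and none was higher at an unadjusted p under 0.05. Of all genes, 6.57% rose by the adjusted test and 16.3% were higher at that unadjusted p. A further quantile step over the genes tested moved the shares of all genes to 7.80% lower and 8.62% higher, with 25 members fallen. The 11 others did not pass, and 9 of them had lower and 2 had higher means in Ad-Epas1. The members' median log2 fold change was -0.66, a level 1.58-fold lower, against a median of 0.05 over all genes. A fall of 1.5-fold or more was seen for 23 members, against 5.19% of all genes. The groups did not overlap for 32 members that were lower in Ad-Epas1, where 18.4% of all genes showed this, and for 1 that was higher, where 21.3% did. In bulk samples such as these, fewer cells of a kind and less RNA per cell cannot be told apart.

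Most pathways took part in the fall. Of 13 measured genes of homologous recombination, 11 fell, with a median of -1.02. In the Fanconi pathway 5 of 9 fell, with a median of -0.52. Among checkpoint genes 7 of 8 fell, with a median of -0.61, and among end joining genes 4 of 5 fell, with a median of -0.61. Of the 3 genes of base excision repair and break sensing, Parp1 and Neil3 fell and Ung did not pass. Neither of the 2 mismatch repair genes passed. Differences between pathways were not tested. The plot of fold changes by pathway shows these groups gene by gene.

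**Figure D1:**
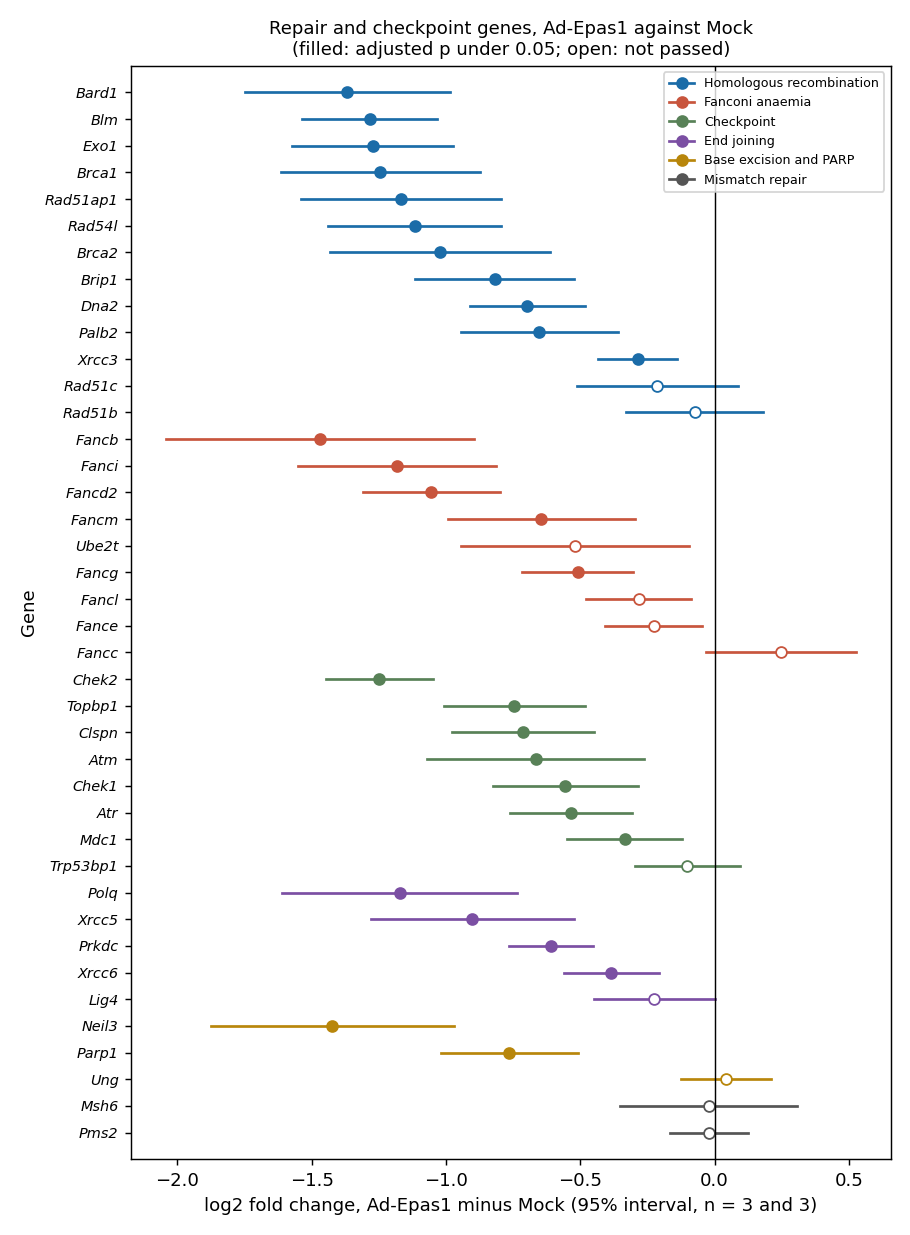
Log2 fold change of the 40 measured members, Ad-Epas1 minus Mock, with 95% intervals from limma (n = 3 and 3), coloured by pathway and sorted within it. Filled points passed at an adjusted p under 0.05 and open points did not. All 29 filled points lie below 0, and the 2 open points above 0 are Fancc and Ung.

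Brca1 and its partners, which act at resected breaks, fell together. Brca1 stood at 7.34, 7.69 and 7.62 on Mock replicates 1, 2 and 3 and at 6.02, 6.35 and 6.55 on Ad-Epas1 replicates 1, 2 and 3. The lowest Mock value lay well above the highest Ad-Epas1 value, and the mean fell 2.37-fold (log2 fold change -1.24, SE 0.16, adjusted p = 0.0045). Bard1, which forms a ubiquitin ligase with Brca1, went from 7.94, 8.13 and 8.19 to 6.62, 6.48 and 7.07. This was the largest fall among the recombination members (log2 fold change -1.37, SE 0.16, adjusted p = 0.0038). Brip1, a helicase bound by Brca1, fell by 0.82 on the log2 scale (SE 0.12, adjusted p = 0.0083). Palb2, which links Brca1 to Brca2, fell by 0.65 (SE 0.12, adjusted p = 0.016). Brca2, a mediator of homologous recombination, stood at 7.39, 7.86 and 7.91 in Mock and at 6.72, 6.47 and 6.92 in Ad-Epas1. Its groups did not overlap either, with a log2 fold change of -1.02 (SE 0.17, adjusted p = 0.012).

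The promoter windows of 4 members that the results turn on are shown here, from 250 bases before to 50 bases after the annotated start (RefSeq, GRCm38.p6), each written 5′ to 3′ on the strand of the gene. Brca1 is shown because its window also holds the start of a gene that moved the other way. Brca2 and Clspn are members that fell and whose windows hold letters bound by E2F factors, and Rad51c holds such letters but did not pass. Capitals mark the letters ACGTG, the core recognised by HIF factors, in Brca1, and the E2F letters defined further on in the other 3. The windows lie at chr11:101551906-101552205 (minus strand, Brca1), chr5:150522371-150522670 (plus strand, Brca2), chr4:126556730-126557029 (plus strand, Clspn) and chr11:87404457-87404756 (minus strand, the first of 2 Rad51c windows).
Brca1: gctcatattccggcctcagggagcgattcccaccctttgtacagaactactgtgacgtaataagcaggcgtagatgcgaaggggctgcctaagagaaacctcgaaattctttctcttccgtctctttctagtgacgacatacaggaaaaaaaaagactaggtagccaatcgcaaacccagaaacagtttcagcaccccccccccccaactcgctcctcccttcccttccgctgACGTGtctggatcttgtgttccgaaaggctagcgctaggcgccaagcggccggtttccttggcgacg
Brca2: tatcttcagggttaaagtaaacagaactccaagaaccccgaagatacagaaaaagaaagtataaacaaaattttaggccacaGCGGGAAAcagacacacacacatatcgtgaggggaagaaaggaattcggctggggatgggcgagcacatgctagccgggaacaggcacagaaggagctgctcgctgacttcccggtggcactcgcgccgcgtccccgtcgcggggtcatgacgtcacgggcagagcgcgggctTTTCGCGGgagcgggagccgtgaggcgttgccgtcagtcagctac
Clspn: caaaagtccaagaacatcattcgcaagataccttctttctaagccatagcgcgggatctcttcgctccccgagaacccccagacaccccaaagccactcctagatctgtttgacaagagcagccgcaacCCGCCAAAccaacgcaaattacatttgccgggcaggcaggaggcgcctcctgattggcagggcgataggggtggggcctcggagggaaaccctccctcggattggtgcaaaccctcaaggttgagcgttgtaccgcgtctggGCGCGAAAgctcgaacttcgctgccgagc
Rad51c: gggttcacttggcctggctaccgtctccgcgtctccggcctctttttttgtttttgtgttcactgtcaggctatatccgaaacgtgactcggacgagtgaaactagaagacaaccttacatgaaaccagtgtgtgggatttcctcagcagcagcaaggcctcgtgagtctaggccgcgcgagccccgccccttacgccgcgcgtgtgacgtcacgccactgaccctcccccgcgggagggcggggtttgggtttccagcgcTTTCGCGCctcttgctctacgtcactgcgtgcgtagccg

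Helicases and nucleases of recombination fell as well. Blm, the helicase that dissolves recombination intermediates, stood at 7.83, 8.19 and 8.14 in Mock and at 6.73, 6.76 and 6.81 in Ad-Epas1. Its Ad-Epas1 arrays lay close together, and it fell 2.43-fold (SE 0.11 on the log2 scale, adjusted p = 0.0014). Exo1, an exonuclease that resects break ends, went from 7.96, 8.06 and 8.13 to 6.57, 7.03 and 6.73 (log2 fold change -1.27, SE 0.13, adjusted p = 0.0023). Dna2, a nuclease and helicase of the same step, fell by 0.70 (SE 0.09, adjusted p = 0.0049). Rad54l, a motor protein of recombination, fell by 1.12 (SE 0.13, adjusted p = 0.0041), and Rad51ap1, an accessory factor of recombination, fell by 1.17 (SE 0.16, adjusted p = 0.0056).

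Rad51b, Rad51c and Xrcc3, which act in recombination complexes, showed small differences. Rad51b stood at 7.46, 7.75 and 7.47 in Mock and at 7.61, 7.47 and 7.38 in Ad-Epas1, and its groups overlapped. Its log2 fold change was -0.07, with a 95% interval from -0.33 to 0.18 (adjusted p = 0.67). Rad51c stood at 7.37, 7.87 and 7.64 against 7.42, 7.40 and 7.43, with a log2 fold change of -0.21 and an interval from -0.51 to 0.09 (adjusted p = 0.28). The spread of Rad51c lay in Mock, where replicate 1 was as low as the Ad-Epas1 arrays. Xrcc3 fell by 0.29 (SE 0.06, adjusted p = 0.025), a small change between groups of very little spread (SD 0.03 and 0.03, n = 3 each). The intervals of Rad51b and Rad51c do not reach the falls of Brca1 or Blm.

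**Figure D2:**
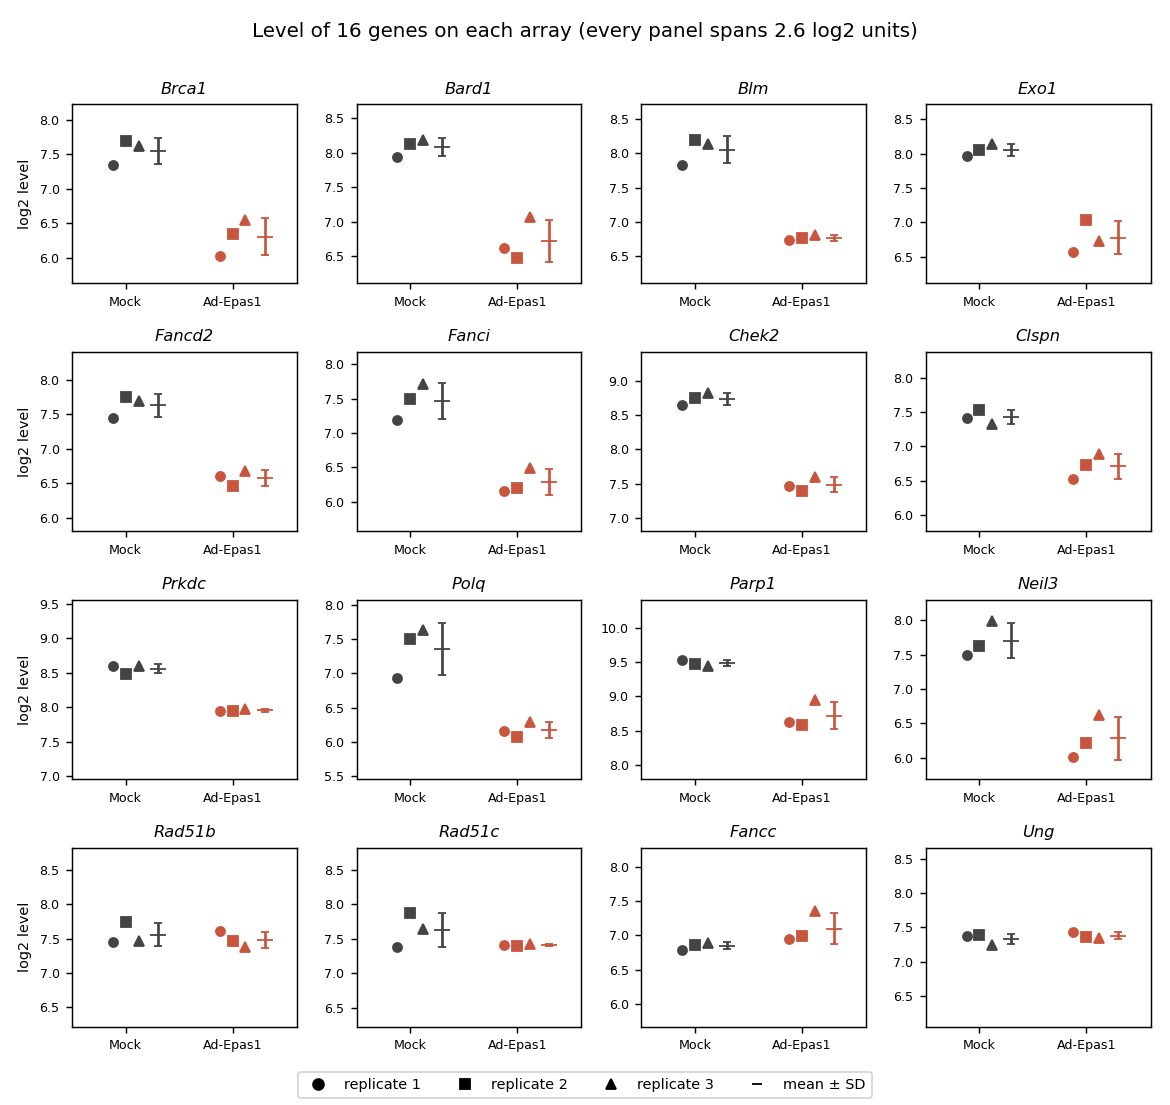
Log2 level of 16 genes on each array; circles, squares and triangles are replicates 1, 2 and 3, the bar beside them is the mean ± SD (n = 3), and each panel spans the same range of log2 units. In the upper 12 panels all Ad-Epas1 arrays lie below all Mock arrays, while Rad51b, Rad51c and Ung overlap and Fancc lies slightly higher in Ad-Epas1.

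In the Fanconi pathway both targets of the core complex fell, and so did Fancb, Fancg and Fancm. Fancd2 and Fanci form the clamp that is monoubiquitinated at a crosslink. Fancd2 stood at 7.44, 7.75 and 7.70 in Mock and at 6.60, 6.45 and 6.67 in Ad-Epas1, and it fell 2.08-fold (SE 0.11 on the log2 scale, adjusted p = 0.0025). Fanci went from 7.19, 7.50 and 7.71 to 6.16, 6.20 and 6.50, a fall of 1.18 (SE 0.15, adjusted p = 0.0052). In both genes Mock replicate 1 was the lowest Mock array and Ad-Epas1 replicate 3 the highest Ad-Epas1 array. Fancb, a core complex subunit, had the largest fold change of all members. It stood at 6.04, 6.97 and 6.86 against 5.29, 5.04 and 5.14 (log2 fold change -1.47, SE 0.24, adjusted p = 0.011), and its Ad-Epas1 levels lay in the range of the receptor genes given for scale, so the size of this fall is less certain. Fancm, the translocase that anchors the complex, fell by 0.64 (SE 0.15, adjusted p = 0.029), and the subunit gene Fancg fell by 0.51 (SE 0.09, adjusted p = 0.012).

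The other measured subunits and the conjugating enzyme did not pass. Fancl, the ubiquitin ligase, had a log2 fold change of -0.28 (interval -0.48 to -0.09, adjusted p = 0.061), and Fance, which binds Fancd2, of -0.23 (interval -0.41 to -0.05, adjusted p = 0.087). Ube2t, the ubiquitin-conjugating enzyme that works with Fancl, stood at 7.08, 7.76 and 7.43 in Mock and at 6.73, 7.05 and 6.93 in Ad-Epas1 (log2 fold change -0.52, adjusted p = 0.096). The groups of these 3 genes did not overlap. Fancc was the 1 member that lay higher on all Ad-Epas1 arrays, at 6.94, 6.99 and 7.35 against 6.79, 6.86 and 6.89 (log2 fold change 0.25, interval -0.03 to 0.53, adjusted p = 0.19). Differences between the core subunits and Fancd2 or Fanci were not tested.

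Checkpoint genes fell in both branches. Chek2, the effector kinase of Atm, stood at 8.65, 8.74 and 8.82 in Mock and at 7.47, 7.40 and 7.60 in Ad-Epas1. The gap between the groups was several times the spread within them, and Chek2 had the smallest adjusted p of all members (2.37-fold lower, SE 0.08 on the log2 scale, adjusted p = 7.8e-04). Atm itself went from 8.63, 8.64 and 8.78 to 7.67, 8.02 and 8.37, with a wide spread in Ad-Epas1 (log2 fold change -0.67, SE 0.17, adjusted p = 0.042). On the other branch, Atr fell by 0.53 (SE 0.10, adjusted p = 0.014) and its effector kinase Chek1 by 0.56 (SE 0.11, adjusted p = 0.021). A second, dimmer probe set of Atr differed by -0.04 (adjusted p = 0.69), so the 2 probe sets of this gene disagree. Topbp1, which activates Atr, stood at 9.83, 10.13 and 10.10 in Mock and at 9.15, 9.28 and 9.40 in Ad-Epas1 (log2 fold change -0.75, SE 0.11, adjusted p = 0.0076). Clspn, the adaptor through which Atr reaches Chek1, fell by 0.71 (SE 0.11, adjusted p = 0.0090).

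Of the 2 members whose proteins bind the chromatin around a break, Mdc1 fell and Trp53bp1 did not pass. Mdc1, which binds the phosphorylated histone H2AX, fell by 0.34 (SE 0.09) at an adjusted p of 0.0495, just inside the threshold. Trp53bp1, which encodes 53BP1 and limits the resection of break ends, stood at 8.74, 8.95 and 8.95 against 8.75, 8.78 and 8.82. Its groups overlapped, with a log2 fold change of -0.10 and an interval from -0.30 to 0.09 (adjusted p = 0.43).

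End joining genes fell in part. Xrcc5 and Xrcc6 encode Ku80 and Ku70, the ring that binds a broken end. Xrcc5 went from 8.76, 9.05 and 9.09 in Mock to 7.87, 7.94 and 8.38 in Ad-Epas1 (log2 fold change -0.90, SE 0.16, adjusted p = 0.013). Xrcc6 went from 7.53, 7.60 and 7.72 to 7.27, 7.21 and 7.20 (-0.39, SE 0.07, adjusted p = 0.018). Prkdc, the kinase that Ku recruits, fell 1.53-fold with very little spread in Ad-Epas1, where it stood at 7.94, 7.94 and 7.98 (SE 0.07 on the log2 scale, adjusted p = 0.0030). Lig4, the ligase of the final step, overlapped between the groups (log2 fold change -0.22, interval -0.45 to 0.00, adjusted p = 0.16). Polq, the polymerase of an alternative route that joins ends through short homologies, also fell. It stood at 6.93, 7.49 and 7.64 against 6.17, 6.07 and 6.30 (log2 fold change -1.17, SE 0.18, adjusted p = 0.0093).

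Among genes that act on single strands and single bases, Neil3 and Parp1 fell. Neil3, a glycosylase that removes oxidised bases and opens some crosslinks, stood at 7.49, 7.63 and 7.99 in Mock and at 6.01, 6.22 and 6.62 in Ad-Epas1. It fell 2.68-fold (SE 0.19 on the log2 scale, adjusted p = 0.0055). Parp1, the poly(ADP-ribose) polymerase that senses strand breaks, went from 9.53, 9.47 and 9.45 to 8.63, 8.59 and 8.94 (log2 fold change -0.76, SE 0.11, adjusted p = 0.0064). Ung, which removes uracil, overlapped at 7.37, 7.39 and 7.25 against 7.43, 7.36 and 7.34 (log2 fold change 0.04, interval -0.13 to 0.21, adjusted p = 0.71). The mismatch repair genes also overlapped. Msh6, a subunit of the mismatch sensor, differed by -0.02 (interval -0.35 to 0.31, adjusted p = 0.93), and Pms2, the nuclease subunit that follows it, by -0.02 (interval -0.17 to 0.12, adjusted p = 0.83). The interval of Pms2 holds no change of 1.5-fold in its array signal. Its means, 6.76 in Mock and 6.74 in Ad-Epas1, lay little above 6.62, however, the level under which 95% of the receptor genes averaged. How far its transcript changed is less certain for that reason.

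The Ad-Epas1 means of 9 members lay below 6.62, the level under which 95% of the receptor genes averaged. These were Brca1, Palb2, Rad51ap1, Rad54l, Fancb, Fancd2, Fanci, Polq and Neil3, and no member had a Mock mean below it. The sizes of these 9 falls and their order are less certain for that reason.

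Individual arrays moved the members together. Mock replicate 1 was the lowest Mock array for 28 of the 40 members and the highest for 3. Ad-Epas1 replicate 3 was the highest Ad-Epas1 array for 28 and the lowest for 6. Taken from each gene's Mock mean, the members' median was -0.11, 0.06 and 0.08 in Mock and -0.68, -0.68 and -0.53 in Ad-Epas1 (replicates 1, 2 and 3). The median over all genes was 0.011, 0.0016 and -0.0094 in Mock and 0.035, 0.025 and 0.055 in Ad-Epas1. In neither case did the groups overlap, so the lack of overlap is not particular to the members. The lower macrophage level of Ad-Epas1 replicate 3 went with the members' smaller shift on that array. Without that array 30 members fell, with a median of -0.74, where 14% of all genes fell, and without it and Mock replicate 1 (an alternative chosen after the data were seen) 32 fell, with a median of -0.75, where 15.2% of all genes fell.

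Some calls were lost when 1 array was left out. Over all genes, 3620 passed with the 6 arrays and between 1181 and 5390 with 1 array left out. Of the 29 members that fell, 17 passed in each of the 6 fits that leave out 1 array, with adjusted p up to 0.049. These are Brca1, Bard1, Brip1, Rad51ap1, Rad54l, Blm, Exo1, Dna2, Fancd2, Fanci, Chek2, Clspn, Topbp1, Prkdc, Polq, Parp1 and Neil3. The other 12 lost the call in at least 1 fit. Xrcc3 and Atm did so in 5 of the 6 fits, the exception being the one that left out replicate 3 of Ad-Epas1 (adjusted p up to 0.11 for Xrcc3 and 0.15 for Atm). Fancm, Chek1 and Mdc1 lost it when replicate 2 or 3 of Mock, or replicate 1 or 2 of Ad-Epas1, was left out (up to 0.11, 0.089 and 0.17). Fancg, Atr, Xrcc5 and Xrcc6 did so without replicate 2 or 3 of Mock or replicate 2 of Ad-Epas1 (up to 0.063, 0.066, 0.065 and 0.075). Brca2 lost it without Mock replicate 2 or 3 (up to 0.058), and Palb2 (up to 0.072) and Fancb (up to 0.053) did so without replicate 3 of Mock or replicate 2 of Ad-Epas1. Fancl passed without Ad-Epas1 replicate 3 (adjusted p = 0.024) and Ube2t without Mock replicate 1 (adjusted p = 0.036). In these fits 19 members fell without Mock replicate 2, 17 without Mock replicate 3 and 18 without Ad-Epas1 replicate 2, and the share of all genes that fell was 3.44%, 3.44% and 4.17%. The checkpoint count dropped from 7 to 3 in each of these 3 fits and to 4 without Ad-Epas1 replicate 1, the end joining count from 4 to 2 in the same 3 fits, and the Fanconi count from 5 to 3 without Mock replicate 2 and to 2 in the other 2 of them. No called fold change moved by more than 1.22-fold.

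The fall of the members went with that of other proliferation genes, whose values are given beside them. Of 29 measured genes of DNA replication, 23 fell and none rose (median -0.74, and none was higher at an unadjusted p under 0.05). Examples were Mcm5, a subunit of the replicative helicase (-1.58, adjusted p = 4.0e-04), Tk1, thymidine kinase (-1.29, adjusted p = 5.3e-04), and Chaf1a, a chromatin assembly factor (-1.20, adjusted p = 9.3e-04). Without Mock replicate 2 the count was 15. Of 29 measured mitosis genes all 29 fell, also in each fit without 1 array, with a median of -2.08. Those with the smallest p were Ccnb2 (-2.96, adjusted p = 3.1e-04), Aurkb (-1.88, adjusted p = 9.3e-04) and Cenpe (-1.98, adjusted p = 9.3e-04). On the same scale, the mitosis median on Ad-Epas1 replicates 1, 2 and 3 was -2.33, -2.19 and -1.88, that of the replication genes -0.76, -0.80 and -0.72, and that of the recombination members -1.01, -0.94 and -0.90. On Mock replicate 1 all 3 groups lay below the other Mock arrays, at -0.44, -0.18 and -0.15. The part of proliferation in the members' fall was not tested.

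**Figure D3:**
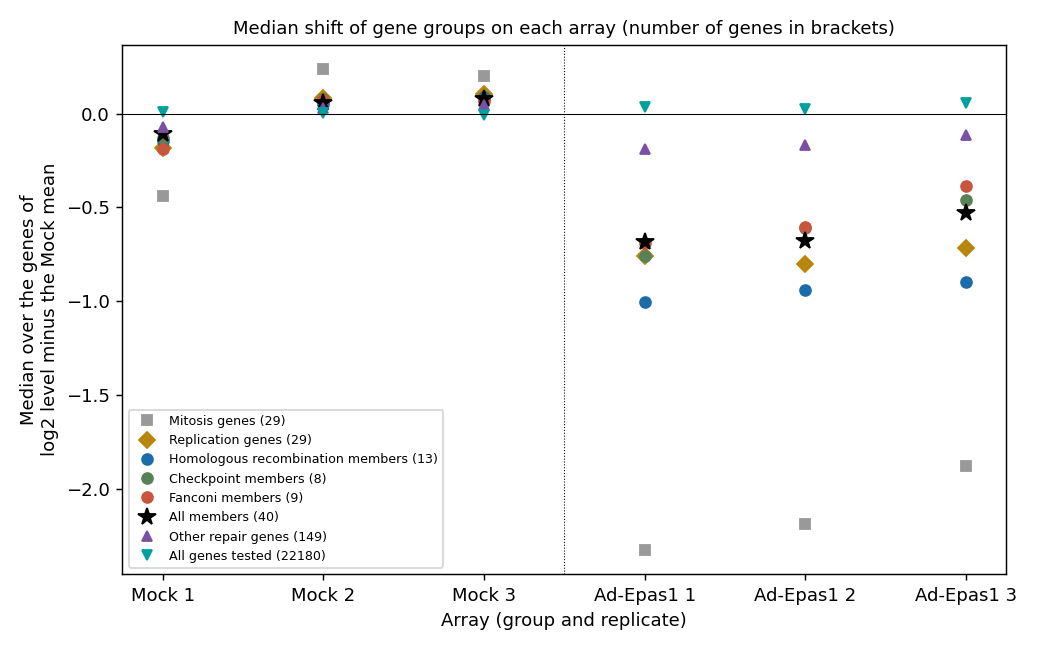
Median over each gene group of the log2 level minus the gene's Mock mean, on each of the 6 arrays. The members (stars) lie between -0.68 and -0.53 on the Ad-Epas1 arrays, near the replication genes, above the mitosis genes and below the other repair genes and all genes tested.

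E2F factors and the proteins that bind them control many of these genes. Of 19 measured members of the E2F, pocket protein and MuvB group, 11 fell and none rose by limma, with a median of -0.41 and none higher at an unadjusted p under 0.05. E2f8, a repressor that is itself induced by other E2F factors in S phase, averaged 8.54 ± 0.14 in Mock and 6.94 ± 0.10 in Ad-Epas1 (SD, n = 3 each), a log2 fold change of -1.60 (limma, adjusted p = 5.6e-04). Foxm1, a factor for genes of G2 and mitosis, fell by 0.96 (adjusted p = 0.0032), and E2f2, an activator, by 0.60 (adjusted p = 0.0075). The count was 3 without Mock replicate 2, 4 without Mock replicate 3, 5 without Ad-Epas1 replicate 2 and 6 without Ad-Epas1 replicate 1. These 3 genes passed in each of those fits. The part of the E2F group in the members' fall was not tested.

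Repair genes outside the chosen members fell in part. Of 149 other measured repair genes, 37 fell and 3 rose, with a median of -0.16, where 9.75% of all genes fell and 6.57% rose; the difference from the members was not tested. Among 36 further recombination genes 13 fell and 1 rose. The smallest p were those of Gen1, a nuclease that cuts recombination intermediates (-1.61, adjusted p = 0.0044), and Rpa1, which coats single-stranded DNA (-0.92, adjusted p = 0.0045). Next came Fignl1, an ATPase of recombination (-1.67, adjusted p = 0.0047). Among 27 further checkpoint genes 9 fell. The mitotic kinase Plk1 (-2.72, adjusted p = 0.0014) and the phosphatases Cdc25b (-1.13, adjusted p = 0.0018) and Cdc25c (-1.71, adjusted p = 0.0027) had the smallest p. In the wider Fanconi group 3 of 15 fell, namely Cenpx, which binds DNA with Fancm (-0.62, adjusted p = 0.0023), Uhrf1 (-1.20, adjusted p = 0.0036) and Dclre1b (-0.39, adjusted p = 0.035). In mismatch repair, which shares the clamp loader and ligase of replication, 3 of 9 fell, namely Rfc5 (-1.11, adjusted p = 0.0056), Lig1 (-0.81, adjusted p = 0.0056) and Rfc3 (-0.63, adjusted p = 0.021). All 3 belong to that shared machinery, and the other 6 did not pass.

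The remaining repair pathways gave few calls. Of 22 measured genes of nucleotide excision repair, which removes bulky lesions, 1 fell (Ccnh, -0.55, adjusted p = 0.042) and 1 rose (Gtf2h1, 0.46, adjusted p = 0.013), with a median of -0.04. Ercc4 had a log2 fold change of 0.27 (adjusted p = 0.086). Of 11 further end joining genes none fell by limma, 4 were lower at an unadjusted p under 0.05 (16.2% of all genes tested were), and Polm, a polymerase that fills gaps, rose by 0.75 (adjusted p = 0.013). Aplf (-0.41, adjusted p = 0.070) and Paxx (-0.36, adjusted p = 0.084) came next. Of 17 further base excision genes 4 fell. The flap endonuclease gene Fen1 (-0.59, adjusted p = 0.0067), Tdp1 (-0.72, adjusted p = 0.017) and Parp3 (-0.51, adjusted p = 0.039) had the smallest p. Of 12 genes of translesion synthesis and direct reversal 4 fell. Rad18 (-0.45, adjusted p = 0.0098), Poli (-0.67, adjusted p = 0.012) and Polh (-0.95, adjusted p = 0.015) had the smallest p. Mus81, named after its value was seen, was the third gene that rose (0.53, adjusted p = 0.029). Without Mock replicate 2 the other repair genes gave 17 falls and 1 rise, without Mock replicate 3 they gave 18 and 0, and without Ad-Epas1 replicate 2 they gave 19 and 0. Dclre1b, Rfc3, Tdp1, Parp3, Ccnh, Mus81, Polm, Gtf2h1, Poli, Polh and Rad18 lost their calls in at least 1 of these fits (adjusted p up to 0.14).

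The promoter windows were searched for short letter strings on both strands. The E2F strings were TTTCGCGC, TTTGGCGC, TTTCCCGC, TTTGGCGG, TTTCCCGG and TTTCGCGG, those of the cell cycle homology region (CHR) TTTGAA and TTCGAA, that of NF-Y boxes CCAAT and that of HIF factors ACGTG. A palindromic CACGTG, as in Parp1 and Xrcc5, matches ACGTG on both strands. Windows were found for 37 of the 40 members. E2F strings occurred in 13 of the 37 (35.1%), against 5.49% of 16990 genes tested that have a window. Among the 14052 genes whose windows held at least 3 CpG dinucleotides, the lowest number of any member, the share was 6.58%. That group was not matched to the members in CpG (median 18 against 22). Of the members that fell, 10 of 26 held an E2F string (38.5%). Of those that did not pass, 3 of 11 did (27.3%), namely Rad51b, Rad51c and Msh6. For comparison, 56.5% of the replication genes with a window and 8.33% of the mitosis genes held one. CHR strings occurred in 13.5% of the members, in 79.2% of the mitosis genes and in 19.4% of all genes. The HIF string occurred in 27.0% of the members and in 23.8% of all genes, and CCAAT in 56.8% and 41.6%. By call, the HIF string was in 6 of the 26 members that fell (23.1%) and in 4 of the 11 that did not pass (36.4%).

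In the Brca2 window shown, TTTCCCGC begins 168 bases before the start on the other strand and TTTCGCGG begins 5 bases after it. In the Clspn window, TTTGGCGG begins 121 bases before and TTTCGCGC 21 bases after the start, both on the other strand. The Rad51c window holds TTTCGCGC 11 bases after its start, the same string as Clspn, and Rad51c had a log2 fold change of -0.21 and Clspn of -0.71. In the Brca1 window no E2F string was found, and ACGTG begins 17 bases before the start. A match is a description of these letters only.

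Some members share a promoter region with a neighbour read in the opposite direction, and the pairs did not always move together. Within 1000 bases, 13 members had such a head-to-head neighbour, and for 11 the neighbour was measured. Of the 8 of these members that fell, 3 had a neighbour that fell, 4 one that did not pass and 1 one that rose. The shares over all genes tested were 9.75% fallen and 6.57% risen, and the difference of the neighbours from these shares was not tested. Among the 8 members, the one with the risen neighbour is Brca1. Its neighbour Nbr1, an autophagy receptor gene, starts 150 bases away inside the window shown. Nbr1 stood at 10.20, 10.14 and 10.25 in Mock and at 10.75, 10.81 and 10.64 in Ad-Epas1, and it rose by 0.54 (SE 0.07, adjusted p = 0.0063) on the same arrays on which Brca1 fell by 1.24. Neither gene lost its call when any 1 array was left out (adjusted p up to 0.040 for Nbr1). The groups did not overlap for either gene.

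The pair of Rad51ap1 and D6Wsu163e, 377 bases apart, moved in 1 direction. D6Wsu163e went from 9.09, 9.28 and 9.23 to 8.28, 8.33 and 8.25 (log2 fold change -0.91, SE 0.08, adjusted p = 0.0014). Palb2 and Dctn5 (-0.26, adjusted p = 0.042) and Fancb and Mospd2 (-0.25, adjusted p = 0.046) also fell together, but Dctn5 and Mospd2 lost their calls in most or all fits without 1 array (adjusted p up to 0.15 and 0.16). Npat, which starts 374 bases from Atm and activates histone genes, differed by -0.12 (adjusted p = 0.34) while Atm fell by 0.67. Xrcc6 fell while Desi1 differed by 0.11 (adjusted p = 0.34), and Xrcc3 fell while Zfyve21 stood at -0.50 (adjusted p = 0.10). The neighbour of Atr, 1700065D16Rik, differed by 0.29 (adjusted p = 0.075). Among the 3 members that did not pass, the neighbour of Rad51b, Zfyve26, rose by 0.51 (adjusted p = 0.020, and up to 0.087 without 1 array), while Tex14 beside Rad51c (0.20, adjusted p = 0.11) and Abhd13 beside Lig4 (0.09, adjusted p = 0.35) did not pass.

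**Figure D4:**
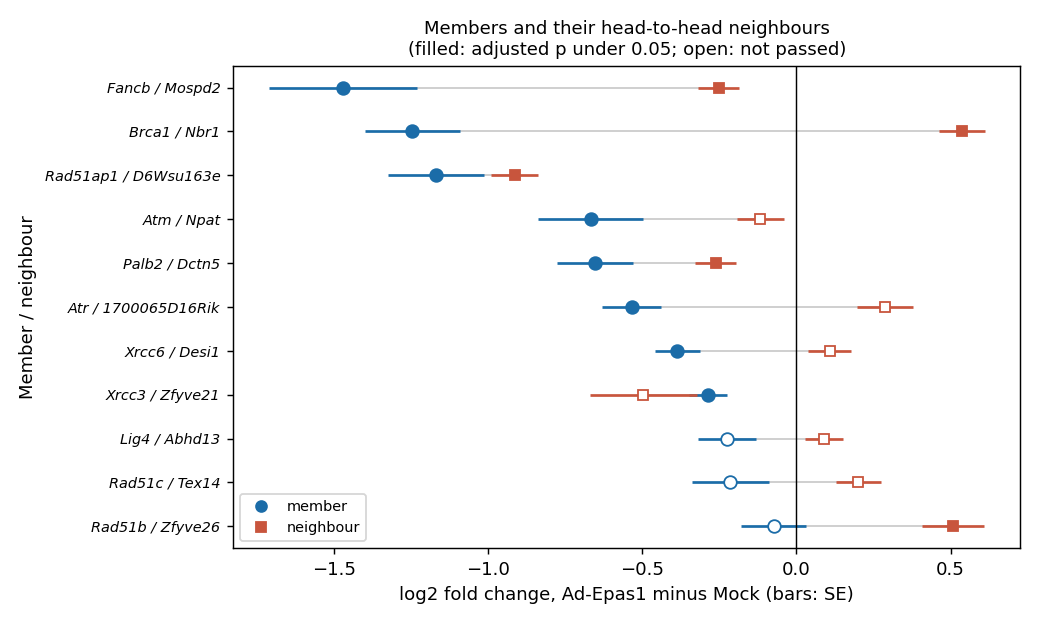
Log2 fold change, Ad-Epas1 minus Mock, of 11 members (circles) and of the gene that starts head to head with each within 1000 bases (squares), with SE bars from limma (n = 3 and 3). Filled symbols passed at an adjusted p under 0.05, and Brca1 with Nbr1 is the 1 pair of filled symbols on opposite sides of 0.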

How the data were processed

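The authors deposited log2 expression values. The submitters' processing notes name RMA (background correction, quantile normalization and probe set summary) and Affymetrix Expression Console 1.3.1. No genome build was named there. Quantile normalization hides a change shared by most genes, and probe set summaries compress large fold changes. The number of arrays limits the precision.

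From the deposited values, 41345 probe sets per array, those with 1 gene symbol (23521) were kept, 1814 with several and 16010 with none were left out, and a gene was represented by its brightest probe set over the 6 arrays (22180 genes, no filter on level). The 23328 Entrez identifiers found in a RefSeq table of GRCm38.p6 changed 0 symbols. Samples were grouped by their titles. The difference between Ad-Epas1 and Mock was fitted with limma 3.58.1 (lmFit, eBayes; R 4.3.3). Two-sided p-values were adjusted by the Benjamini-Hochberg method across the genes tested, and calls were made at 0.05. SE is the moderated standard error, SD is over 3 arrays. An exact permutation test of 3 against 3 cannot go below 0.1. The script was tested on simulated data.

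The text names every measured member, Epas1, and the 3 genes with the smallest p in each other repair, replication, mitosis, E2F and synoviocyte marker list. It also names the head-to-head neighbours, which were chosen after the data were seen. The members and lists were chosen with earlier results of these data known. Alternatives were a replicate block, leaving out arrays, other scalings, a level filter, another variance prior, array weights, other probe set rules and a test without shared variance. The deposited table held 0 columns from other samples.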

Additional observations from a re-analysis of the deposited data

How the results depend on the processing

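Across the 16 alternatives, no member that fell changed sign and the count of risen members stayed at 0; the median of the members lay between -0.75 and -0.54. With each array left out in turn, between 1181 and 5390 genes passed over all genes, and between 3.44% and 14% of all genes fell. In these fits between 17 and 30 members fell. Of the other repair genes between 17 and 43 fell and between 0 and 5 rose. Leaving out both Mock replicate 1 and Ad-Epas1 replicate 3, chosen after the data were seen, gave 6000 genes over all genes and 6 other repair genes that rose. Array weights gave 7791 genes, with 67 falls and 7 rises among other repair genes, and 32 fallen members (18.2% of all genes fell). A linear model per gene without shared variance gave 1448 genes, 13 fallen members (3.70% of all genes fell) and 17 falls and 1 rise among other repair genes. Keeping only genes above the median level left 24 members, of which 17 fell with a median of -0.54 (19.7% of all genes kept fell), and none of those calls was lost. A further quantile step gave 25 fallen members (Xrcc3, Fancm, Atm and Mdc1 did not pass), 9 rises among other repair genes, and over all genes 7.80% falls and 8.62% rises in place of 9.75% and 6.57%. Centring each array on its median gave 28 fallen members, where 8.69% of all genes fell.

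With the replicate number as a block, 28 members fell (Xrcc3 and Mdc1 lost the call and Ube2t gained it). In that fit 3108 genes passed over all genes, and 8.87% of all genes fell. Whether the numbers pair the samples cannot be told from 3 arrays per group. Deviations from the group means correlated at 0.34, -0.19 and 0.21 for numbers 1, 2 and 3. Between unlike numbers the correlations ranged from -0.33 to 0.27. Among the 29 fallen members, Brca1, Bard1, Rad54l, Blm, Exo1, Dna2, Fancd2, Fanci, Chek2, Prkdc and Parp1 passed under every alternative in which they were tested. The number of arrays, and signal near that of unexpressed genes for 9 members, limit what these data can resolve.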
